A study of Mus musculus with 8 samples.

Results

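Cytosolic ribosomal proteins are the protein part of the ribosome: together with ribosomal RNA they form the small subunit, which reads the mRNA, and the large subunit, which joins amino acids. Most are encoded by a single active gene with introns that is transcribed in nearly every cell, and the proteins are made in matched amounts, partly because their mRNAs carry a run of pyrimidines at the 5′ end that lets the mTOR pathway and Larp1 control their translation together. Rodent genomes also hold many intronless copies of these genes, made by reverse transcription of their mRNAs, and most of these copies are pseudogenes. In the olfactory mucosa these genes are used by the sensory neurons, the basal cells that renew them and the supporting cells alike. Genes were taken by name: Rpl or Rps with a number and at most 1 ending letter, plus Rpsa, Rplp0, Rplp1 and Rplp2, leaving out names ending in -ps, the Rps6k kinases, Rps19bp1 and clone names. This gave 81 of the 54982 genes in the table, 49 of the large subunit and 32 of the small subunit.

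The study asked what 2 candidate enhancers of the trace amine-associated receptor (Taar) genes, TE1 and TE2, do in the olfactory mucosa, the lining of the nose that holds the sensory neurons. Total RNA depleted of ribosomal RNA was sequenced in 4 libraries labelled ΔTE1+2, from mice with the T element deletion, and in 4 control libraries, whose titles call them WT (wild type) and whose genotype label is control. Both groups were labelled 129S6;C57BL/6J, male and postnatal day 30, and the labels do not say whether the samples of a group came from separate animals, so p-values measure the spread between these samples only. Libraries held 36359734 to 44114750 reads assigned to genes in the deletion group and 31655524 to 50748777 in controls. Taar genes had 11 to 83 reads in deletion libraries and 2941 to 3594 in controls. All 10 markers of mature olfactory sensory neurons (Omp, Cnga2, Adcy3 and others) were above 100 scaled reads, a scaled read being a read divided by the library's size factor, and summed to 506977 to 528455 in deletion libraries and 414992 to 526718 in controls. Libraries stood apart in 3 ways: deletion replicate 3 had 15300.3 scaled reads of Xist and 5.69 of the Y-linked Ddx3y, against its male label; the gene Gm10800 took 7.87% of the reads of control replicate 3; and ribosomal protein genes were low in control replicate 2, as described with the group comparison.

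The features that ribosomal protein genes share were seen in the annotation. Their shortest complete principal transcripts had a median length of 681 bases (271 to 3706) and a median of 5 exons (1 to 10), and they lay on 19 chromosomes, 4 of them on X. Small nucleolar RNA genes, which guide chemical modification of other RNAs and are usually cut out of introns, lay inside 29 of the 81 genes (35.8%), against 259 of 21951 protein-coding genes (1.18%) of the annotation. There were 56 such RNAs in all, with 5 in Rpl4, which lines the peptide exit tunnel, and 4 in Rpl13a. RefSeq promoters (GRCm38.p6, from 250 bases before the start to 50 after it) matched 60 of the 81. Among the 21 without an entry were Rpl17, Rpl21, Rpl23a, Rpl29, Rpl3, Rpl30, Rpl32, Rpl36, Rpl7, Rpl8, Rplp1, Rps14, Rps20, Rps27a, Rps29 and Rps4l. A run of 8 or more pyrimidines (C or T) that begins with C stood within 50 bases of the start on the sense strand in 49 of 60 promoters (81.7%), against 28.8% of all 32851 promoters. On the opposite strand it was in 12 of 60, against 31.6% of all. CCGGAA, on either strand and anywhere in the window, was in 30 of 60 against 14.9%, AAGATGGC in 4 of 60 (6.67%) against 2.75%, and TATAAA on the sense strand in the 50 bases before the start in 0 of 60 against 2.63%. These matches describe letters only. The 5 windows at the start sites are shown because these genes carry later results, with the pyrimidine run in capitals and the gene's own strand 5′ to 3′:
Rps12, chr10:23787180-23787216, minus strand: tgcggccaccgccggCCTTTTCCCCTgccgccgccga
Rpl15, chr14:18270959-18271005, minus strand: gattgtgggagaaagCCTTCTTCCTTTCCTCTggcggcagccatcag
Rps15a, chr7:118116138-118116177, minus strand: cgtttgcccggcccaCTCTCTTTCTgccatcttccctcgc
Rpl13a, chr7:45128716-45128758, minus strand: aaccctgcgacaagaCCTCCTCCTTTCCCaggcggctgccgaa
Rpl4, chr9:64173355-64173397, plus strand: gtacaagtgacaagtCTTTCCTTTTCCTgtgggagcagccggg
The run in Rpl15 is the longest of these at 17 bases, and that in Rps15a the shortest at 10. For Rpl12, Rps21 and Rpl24 no run of this kind was found from 50 bases before the start to 30 after it. That search ends sooner than the 50 bases after the start used for the count above.

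Levels were compared between genes as scaled reads per kilobase of that transcript, since longer mRNAs collect more reads. The median over the 81 genes was 10564 per kilobase, and 62 lay within 2-fold of it. The 6 highest were Rps27, Rpl41, Rps24, Rplp1, Rps12 and Rpl9. Rps27, a zinc finger protein of the small subunit, averaged 30418 ± 2028 in deletion libraries and 28443 ± 4632 in controls per kilobase (SD, n = 4 each). Rpl41, a very short basic peptide at the subunit interface, averaged 28685 ± 1423 in deletion libraries and 26143 ± 4230.5 in controls. Rplp1, a protein of the large subunit's stalk, averaged 26102 ± 1785 in deletion libraries and 22741 ± 3709.9 in controls. Per kilobase, the libraries of Rps27 and Rpl41 overlapped. The order depends on the length taken: over all merged exons Rplp1 ranked 1, Rpl41 8, Rps27 9 and Rps24 66, with a rank correlation of 0.705 between both orders over the 81 genes.

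At the low end, 75 genes were above 1000 per kilobase and 6 were below: Rps4l, Rpl13a, Rpl24, Rpl3l, Rpl39l and Rpl10l. These last 6 kept ranks 76 to 81 with either length. Rpl24 and Rpl13a are ordinary large subunit genes, and their rows held few reads. Rpl24, which carries the belly spot and tail mutation in mice, had 33.6, 28.6, 32.2 and 20.1 scaled reads in deletion replicates 1 to 4, against 25.9, 40.7, 37.4 and 32.5 in control replicates 1 to 4. The groups overlap. Its 3 copies summed to 45.5 to 91.0 scaled reads in deletion libraries and 44.4 to 94.4 in controls, above the gene's own row in every library. Of the exon bases of Rpl24, 71.5% are also annotated in Gm28037 on the same strand, and for Rpl13a 59.3% are shared with Gm45713 and Mir5121. Rps10, however, shares 91.6% with a read-through gene and averaged 11938 ± 146 in deletion libraries and 10901 ± 1701 in controls per kilobase. Whether overlapping annotation moves reads out of these rows was not tested. Rpl13a had 272, 303, 303 and 334 scaled reads in deletion replicates 1 to 4, against 318, 281, 336 and 331 in control replicates 1 to 4, and the spread of both groups covers the same range.

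The other low genes are paralogs with narrow expression elsewhere. Rpl3l, the heart and skeletal muscle paralog of Rpl3, had 22.7, 19.8, 17.1 and 19.2 scaled reads in deletion replicates 1 to 4, against 21.9, 30.5, 30.9 and 22.6 in control replicates 1 to 4, so that its deletion and control libraries overlap. Rpl39l, known from testis, had 4.33, 5.51, 15.2 and 11.9 scaled reads in deletion replicates 1 to 4, against 3.24, 4.62, 14.2 and 7.87 in control replicates 1 to 4. Rpl10l, a testis gene that stands in for the X-linked Rpl10 during meiosis, had 3.86 scaled reads in control replicate 3 and 0 in the other 7 libraries, and with Rpl39l it was too low to test. Striated muscle markers summed to 129.9 to 168 scaled reads in deletion libraries and 113 to 251 in controls over 8 genes. Rps4l, annotated as a transcribed processed pseudogene and an intronless relative of the X-linked Rps4x, had 585, 509, 363 and 825 scaled reads in deletion replicates 1 to 4, against 867, 397, 680.0 and 662 in control replicates 1 to 4. Its values varied most of the 77 ribosomal protein genes over 100 scaled reads, with coefficients of variation of 33.8% in deletion and 29.6% in control libraries. Rps4x itself had 15707, 15739, 16289.8 and 15873 scaled reads in deletion replicates 1 to 4, against 16781, 12061, 14067 and 14988 in control replicates 1 to 4, and its coding sequence was 79.9% identical to that of Rps4l, with a longest shared run of 35 bases.

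**Figure D1:**
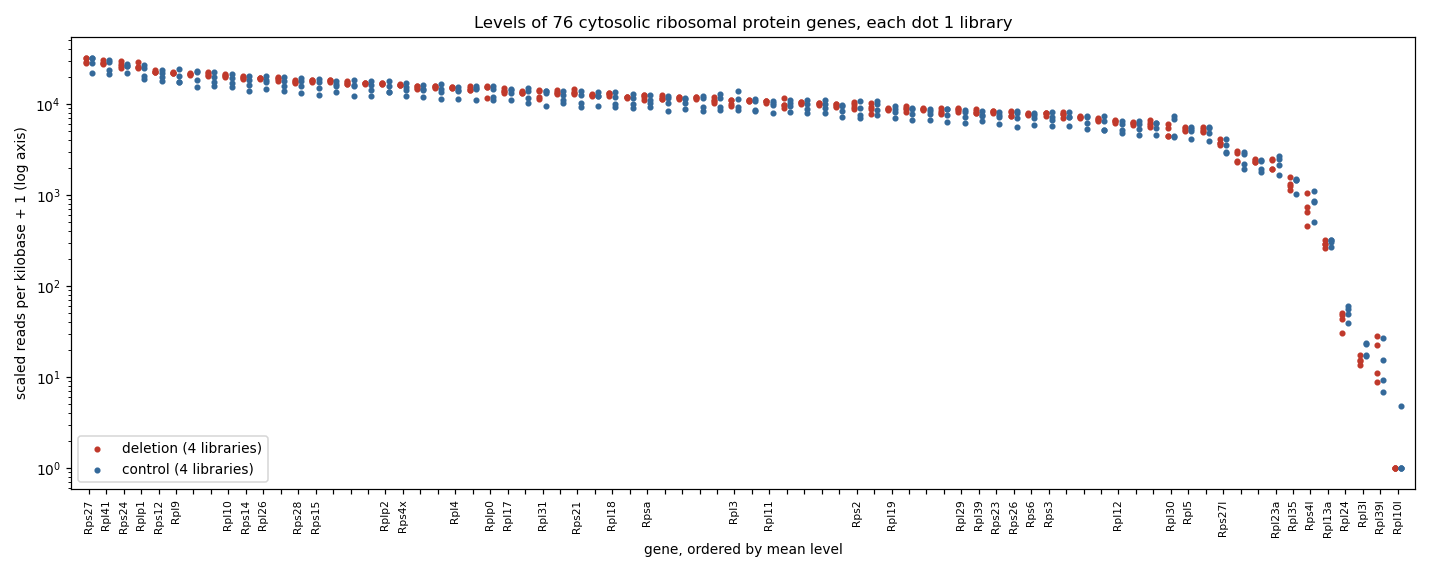
Scaled reads per kilobase plus 1 (log axis) of 76 of the 81 genes, ordered by mean level with some of the names shown, with each dot 1 library and deletion left of control for each gene. Most genes sit within 2-fold of the median, and 6 genes, from Rps4l to Rpl10l, sit below 1000.

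As a share of all reads, ribosomal protein genes took 16582 ± 475 CPM (reads per 1000000 assigned) in deletion libraries and 15432 ± 1735 in controls (SD, n = 4 each), a difference of 7.45% that lies within the spread of the controls. It was 3.27% without control replicate 2 and 12.1% without control replicate 1. By library these were 16568, 16597, 15999 and 17162 CPM in deletion replicates 1 to 4, against 17356, 13559, 14453 and 16359 in control replicates 1 to 4. All deletion libraries sit inside the control range, and control replicates 2 and 3 are the lowest of all 8. The ratio of large to small subunit reads was 1.42 ± 0.015 in deletion libraries and 1.43 ± 0.013 in controls. In bulk tissue, fewer cells of a type and less RNA per cell cannot be told apart.

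The 77 genes above 100 scaled reads moved together from library to library. On the log2(scaled reads + 1) scale, their median deviation from each gene's own mean over 8 libraries was 0.0672, 0.0443, 0.0720 and 0.108 in deletion replicates 1 to 4 and 0.150, -0.339, -0.117 and 0.0334 in control replicates 1 to 4. Control replicate 2 was the lowest library for 72 of the 77 (93.5%), against 38.6% of the 14696 tested genes above 100 scaled reads. Control replicate 1 was the highest for 39. After this shared shift was taken off, the SD of a gene over 8 libraries had a median of 0.056, and 65 of 77 were below 0.1. The spread within the deletion group was small: the coefficient of variation had a median of 3.60% in deletion libraries and 15.2% in controls, against 7.68% and 11.4% for all genes of that level, and the SD was larger in controls for 76 of the 77 genes. Of the 14696 genes, 69.1% had the larger SD in controls.

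Other lists also deviated in control replicate 2. Their medians there were -0.26 for 39 translation factors, -0.25 for mitochondrial ribosomal proteins and -0.18 for 40 ribosome assembly genes, against -0.094 for all tested genes. Among cell type markers the deviation there was -0.62 for respiratory epithelium and glands, -0.31 for sustentacular cells, -0.28 for mature sensory neurons, 0.34 for olfactory ensheathing glia and 0.80 for erythroid cells. It was -0.37 for horizontal basal cells, -0.22 for immature sensory neurons, -0.19 for dividing cells and -0.16 for macrophages and lymphocytes. Values were nearer 0 for globose basal cells (-0.040), neutrophils (-0.043) and bone and cartilage (-0.0019). The 8 respiratory and gland markers summed to 473229 to 536301 scaled reads in deletion libraries and 310414 to 472094 in controls, and the 7 erythroid markers to 1175 to 1693 scaled reads in deletion libraries and 993 to 2989 in controls. No marker of either list was at 0 in all libraries. The part of these cells in the ribosomal protein values was not tested.

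**Figure D2:**
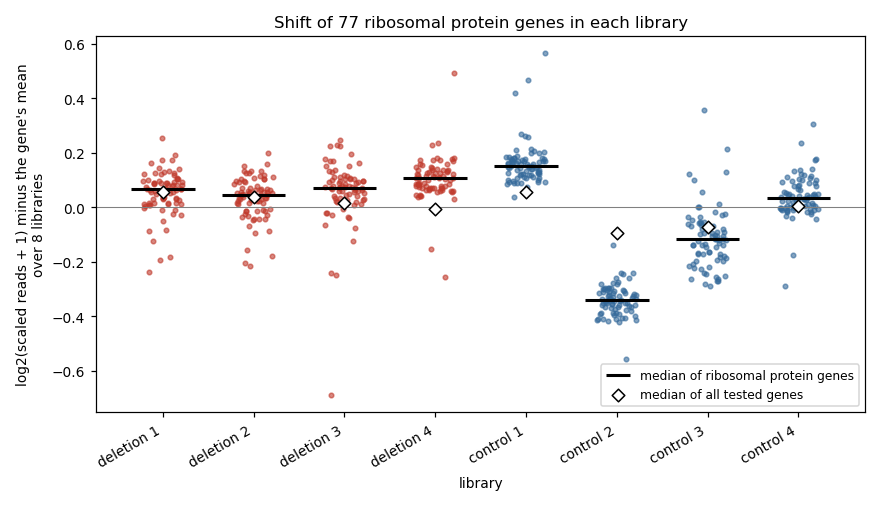
Deviation of each of 77 ribosomal protein genes from its own mean over 8 libraries (log2 scale), by library, with deletion left of control, the median of these genes as a bar and the median of all tested genes as a diamond. The genes shift as a block, lowest in control replicate 2 (median -0.34) and highest in control replicate 1 (0.15).

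None of the 79 genes with enough reads to test passed the test of deletion against control after adjustment over all 21974 tested genes (limma on log2(scaled reads + 1), Benjamini-Hochberg, threshold 0.05), where 16 genes (0.0728%) passed. The lowest adjusted p among the 79 was 0.869. Unadjusted, 2 of 79 had p under 0.05 (3.5% of all genes); both were higher in deletion (1.58% of all genes) and 0 were lower (1.92%). With edgeR on the reads, 0 of 79 were called (0.0728% of all genes) and 1 had an unadjusted p under 0.05 (4.15%), and with DESeq2 these were 0 (0.105%) and 0 (4.53%). Log2 fold changes, deletion minus control, were above 0 for 70 of 79 (54.4% of all genes) and above 0.1 for 56 (25.8% of all genes). Their median was 0.14 against 0.018 for all tested genes, with quartiles of 0.095 and 0.17 and a median standard error of 0.10. In 0 of 79 did the groups stand apart, against 0.983% of all genes that were higher and 1.22% that were lower in every deletion library. The large subunit had a median of 0.14 over 47 genes and the small subunit 0.14 over 32.

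The median stayed above 0 when any 1 library was left out, but its size depended on the control libraries. It was 0.056 without control replicate 2, with 57 of 79 above 0, against 0.011 over all tested genes. Without control replicate 1 it was 0.21, against 0.025, with 73 of 79 above 0 and 41 at an unadjusted limma p under 0.05. By median deviation that library is the highest for these genes, so a higher median followed from leaving it out. The shares of all genes above 0 or under that p were not counted in fits that leave out libraries. Without control replicates 2 and 3 together the median of the ribosomal protein genes was -0.021, against -0.0055 over all tested genes, with 26 of 79 above 0. That pair was chosen after seeing the data and holds the lowest libraries for these genes, so a lower median followed from the choice. By their median deviation, all 4 deletion libraries lie between control replicates 4 and 1 and above control replicates 2 and 3. In the authors' deposited table, where a negative log2 fold change means higher in deletion, 71 of the 81 genes were negative and 10 positive, and the lowest adjusted p among them was 0.923.

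**Figure D3:**
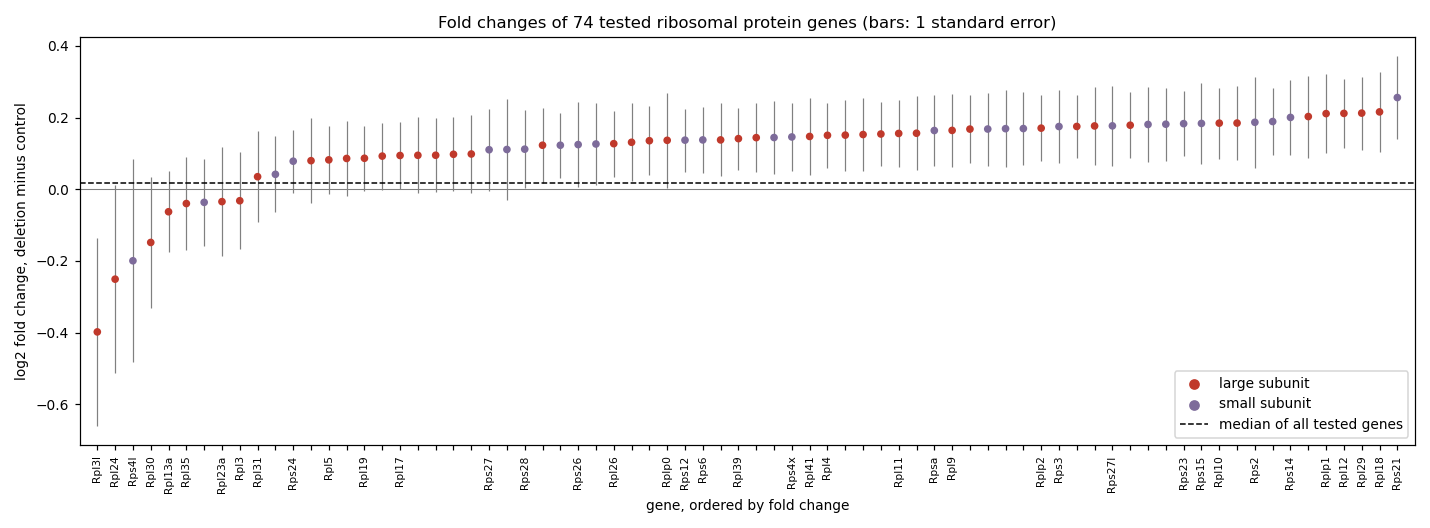
Log2 fold change, deletion minus control, of 74 of the 79 tested ribosomal protein genes with its standard error, ordered by size and coloured by subunit, with some of the names shown and the median of all tested genes as a dashed line. Values run from -0.40 (Rpl3l) to 0.26 (Rps21), and most lie between 0.1 and 0.2.

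The 4 stalk genes, whose proteins catch the GTP-binding factors that drive each step of elongation, all had values above 0, with a median log2 fold change of 0.19 and 0 of 4 called. Rplp2, the partner of Rplp1, had 7155, 7148, 7025 and 7067 scaled reads in deletion replicates 1 to 4, against 7482, 5647, 5642 and 6642 in control replicates 1 to 4. Control replicates 2 and 3 are low, control replicate 1 is the highest of all, and its fold change was 0.17 ± 0.093 (SE). Rpl12, at the base of the stalk, had 8154, 8020.2, 8262 and 7598 scaled reads in deletion replicates 1 to 4, against 8097, 5935, 6396 and 7431 in control replicates 1 to 4. Deletion replicates 1 and 3 lie above control replicate 1, the highest control, and deletion replicate 2 just under it, and its fold change of 0.21 ± 0.096 had the smallest unadjusted p of the list, 0.0493 (limma, adjusted 0.869). Rplp0, which anchors the P1 and P2 proteins, had 21083, 21434, 15753 and 20690.5 scaled reads in deletion replicates 1 to 4, against 21311, 14959.8, 16005 and 19777 in control replicates 1 to 4. Deletion replicate 3 is lower than its group, and the groups overlap. Copies of Rplp0 are described below.

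Rpl5 and Rpl11 carry the 5S ribosomal RNA into the large subunit and can bind the p53 regulator Mdm2 when unassembled. Rpl11 had 8947, 8616, 8953 and 9033 scaled reads in deletion replicates 1 to 4, against 8961, 6587, 8032 and 8543 in control replicates 1 to 4, with a fold change of 0.16 ± 0.093, and Rpl5 one of 0.082 ± 0.095. Control replicate 2 lay below the other libraries for Rpl11. The 8 genes of the peptide exit tunnel had a median of 0.090 with 6 of 8 above 0. Rpl4, which lines the tunnel, had 23675, 23074, 23610.1 and 23332 scaled reads in deletion replicates 1 to 4, against 23731, 17668, 21329.6 and 22181 in control replicates 1 to 4. Its deletion libraries differ by a coefficient of variation of 1.18%, and control replicate 2 stands below all others. Rpl26 and Rpl17, both near the exit, had fold changes of 0.13 ± 0.092 and 0.094 ± 0.093. Rpl39, beside them, had 0.14 ± 0.086, Rpl19 0.086 ± 0.091 and Rpl31 0.035 ± 0.13. Rpl23a, which contacts the signal recognition particle, and Rpl35 had -0.035 ± 0.15 and -0.040 ± 0.13.

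All 10 genes for the mRNA entry and exit of the small subunit were above 0, with a median of 0.17 and a range of 0.11 to 0.20, and 0 were called. Rps23, at the decoding site, had 7589, 7471, 7780.0 and 7890.1 scaled reads in deletion replicates 1 to 4, against 7689, 5706, 6705 and 7124 in control replicates 1 to 4. Control replicate 1 lies among the deletion libraries and the other 3 controls lie below them, with a fold change of 0.18 ± 0.090. At the entry, Rps2 and Rps3 had fold changes of 0.19 ± 0.13 and 0.17 ± 0.10. Rps15, whose tail reaches the decoding centre, had 0.18 ± 0.11. On the exit side Rpsa had 0.16 ± 0.099, Rps14 0.20 ± 0.10, Rps26 0.12 ± 0.12 and Rps28 0.11 ± 0.11. In each of the 10 genes the groups overlap.

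Of the central proteins, Rpl3 at the peptidyl transferase centre had 14949, 14844, 13507 and 12703 scaled reads in deletion replicates 1 to 4, against 18868, 11627, 15153 and 12520.2 in control replicates 1 to 4. The highest 2 libraries are both controls, replicates 1 and 3, and the fold change was -0.032 ± 0.14. Rpl10, whose joining completes the large subunit, had 0.18 ± 0.099, and Rps6, the protein phosphorylated by S6 kinases downstream of mTOR, had 0.14 ± 0.093. Among the paralogs, Rps27l, a p53-responsive relative of Rps27, had 1788, 1839.9, 2067 and 1841 scaled reads in deletion replicates 1 to 4, against 2043, 1442, 1467 and 1775 in control replicates 1 to 4. Its groups overlap and its fold change was 0.18 ± 0.11, beside 0.11 ± 0.11 for Rps27 itself. The 18 genes mutated in human Diamond-Blackfan anaemia, an inherited failure of red cell production, had a median of 0.13 with 17 of 18 above 0 and 0 called.

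The largest positive fold changes were those of Rps21, Rpl18, Rpl12, Rpl29 and Rplp1. Rps21, a small subunit protein, had 5130.3, 5288, 5743 and 5252 scaled reads in deletion replicates 1 to 4, against 5493, 3677, 4007 and 4977 in control replicates 1 to 4. Control replicate 1 lies above 3 of the 4 deletion libraries, and the fold change of 0.26 ± 0.12 had an unadjusted p of 0.0498 (limma, adjusted 0.869). Without control replicate 2 it was 0.16. Rpl18 had 8842, 8887, 8282 and 8899 scaled reads in deletion replicates 1 to 4, against 9305, 6218, 6807 and 8087 in control replicates 1 to 4, with the same order among controls, and Rpl29 had a fold change of 0.21 ± 0.10. Among the largest negative ones, Rpl30, a kink-turn binding protein whose yeast form controls splicing of its own pre-mRNA, had 3393, 3104, 2566 and 2538 scaled reads in deletion replicates 1 to 4, against 4190.0, 2562, 3883 and 2483 in control replicates 1 to 4. Control replicates 1 and 3 are the highest of the 8 libraries and control replicate 4 the lowest, and its fold change was -0.15 ± 0.18. The other 4 were the low genes Rpl3l, Rpl24, Rps4l and Rpl13a, at -0.40 ± 0.26, -0.25 ± 0.26, -0.20 ± 0.28 and -0.063 ± 0.11.

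Rps12 lies beside the Taar cluster on chromosome 10 (GRCm38, 23785183 to 23787275, minus strand), 133 kb from it, with the protein-coding genes Slc18b1, Vnn3 and Vnn1 between. In flies Rps12 takes part in cell competition between cells with unequal ribosomal protein doses. It had 11176, 10991, 11017 and 11764 scaled reads in deletion replicates 1 to 4, against 11644, 8817, 9869.5 and 10749 in control replicates 1 to 4. The deletion libraries are close to each other and to control replicates 1 and 4, and control replicate 2 is the lowest. Its fold change of 0.14 ± 0.088 (limma, adjusted p = 0.869) equals the median of the ribosomal protein genes within its error.

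Copies, here other genes that share at least 5% of a gene's windows of 50 bases, took a varying share of reads in some libraries. Over a window of 50 bases, 77 of the 81 genes shared at least 5% of their sequence windows with another gene, and 47 shared more than 50% of them. There were 664 such copies in the table, counted once. Among pairs of a gene and a copy, 16 had a copy whose highest library was above 150 scaled reads and more than 3 times the lowest. A copy paired with several genes would count more than once there. The genes below were chosen after their values were seen, and none of their copies passed limma's adjusted threshold.

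Rps13, a small subunit protein on chromosome 7, and its copy Rps13-ps1 on chromosome 8 split the libraries. The copy had 1626, 849, 909.9 and 35.6 scaled reads in deletion replicates 1 to 4, against 38.9, 34.2, 38.6 and 58.0 in control replicates 1 to 4. It was high in deletion replicates 1, 2 and 3 and near the controls in deletion replicate 4. Rps13 itself had 4516, 5201, 5391 and 5995 scaled reads in deletion replicates 1 to 4, against 6413, 4437, 5036 and 5865 in control replicates 1 to 4. The 3 libraries with a high copy are the lowest 3 of the deletion group for Rps13. With all copies added, the deletion coefficient of variation was 1.97%, against 11.5% for the gene alone, and the fold change was 0.17 in place of -0.037. The control coefficient of variation was 15.9% with copies added and 16.1% for the gene alone. The small subunit gene Rps15a lies 1.77 Mb away on the same chromosome, and its copy Rps15a-ps7 on chromosome 2 was high in the same 3 libraries, with 255, 119, 128 and 22.8 scaled reads in deletion replicates 1 to 4, against 17.0, 20.3, 12.9 and 21.6 in control replicates 1 to 4. Rps15a itself had 5761, 6217, 6259.6 and 7357 scaled reads in deletion replicates 1 to 4, against 7119.7, 5189.6, 6131 and 6488 in control replicates 1 to 4, lower in deletion replicates 1, 2 and 3 than in deletion replicate 4. The authors' deposited table gives Rps15a-ps7 a log2 fold change of -0.42, higher in deletion, with an adjusted p of 0.00323. In limma its log2 fold change, deletion minus control, was 2.40 ± 0.61, with an adjusted p of 0.869. The deposited value is thus far smaller in size than that from the scaled reads. This is not particular to Rps15a-ps7: the deposited and limma values were -0.18 and 3.44 for Rps13-ps1, and -0.062 and 1.75 for Rpl3-ps1, a copy of Rpl3. Why the deposited values are smaller was not tested.

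Rpl3-ps1, the copy of Rpl3 on the X chromosome, had 786, 725, 1499 and 1778 scaled reads in deletion replicates 1 to 4, against 131, 579.5, 96.6 and 1570.4 in control replicates 1 to 4. It was lowest in control replicates 1 and 3, where Rpl3 was highest. With copies added, the Rpl3 fold change was 0.021, and the deletion coefficient of variation was 3.72% in place of 7.76%. Gm8730, a copy of Rplp0 on chromosome 8, had 117, 112, 2342 and 173 scaled reads in deletion replicates 1 to 4, against 125, 96.1, 119.8 and 225 in control replicates 1 to 4. It was high in deletion replicate 3 alone, the library where Rplp0 was lowest in its group, and with copies added the deletion coefficient of variation of Rplp0 was 5.90% in place of 13.6%. Gm10020, a copy of the large subunit gene Rpl15, had 3.25, 284, 549.8 and 283 scaled reads in deletion replicates 1 to 4, against 2.43, 2.77, 6.44 and 262 in control replicates 1 to 4. It was present in deletion replicates 2, 3 and 4 and control replicate 4, and with copies added the deletion coefficient of variation of Rpl15 was 1.19% in place of 7.09%. For Rplp1 and its copies it was 9.30% in place of 6.84%. In controls the coefficient with copies added was 18.9% in place of 22.3% for Rpl3 and 16.9% in place of 16.8% for Rplp0. Control values were 14.4% in place of 14.5% for Rpl15 and 16.5% in place of 16.3% for Rplp1. The median fold change of the ribosomal protein genes without these 6 genes was 0.14. The counting of reads that match several places is not stated in the sources, and its part in this split was not tested.

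The sequences show how few positions separate a gene from its copy. Over the coding sequence, identity was 99.6% for Rps13 and Rps13-ps1 with 2 mismatches, 99.8% for Rpl3 and Rpl3-ps1 with 2, 99.7% for Rpl15 and Gm10020 with 2, 98.7% for Rplp0 and Gm8730 with 12 and 98.7% for Rps15a and Rps15a-ps7 with 4. The longest identical run was 728 bases for Rpl3. Windows of 30 coding bases from the GENCODE M21 transcripts are printed around a mismatch, with the differing base in capitals:
Rps13, gene at chr7:116331505-116334195: gcgggtgctcccaccTaattggaaatatga
Rps13-ps1, gene at chr8:87047689-87048226: gcgggtgctcccaccCaattggaaatatga
Rps15a, gene at chr7:118104372-118116188: atacattggtgaattTgagatcattgatga
Rps15a-ps7, gene at chr2:152185291-152185682: atacattggtgaattCgagatcattgatga
Rpl3, gene at chr15:80077791-80091868: gggcttcctgcctcgCaagcgcagcagccg
Rpl3-ps1, gene at chrX:13202571-13203780: gggcttcctgcctcgAaagcgcagcagccg
Rplp0, gene at chr5:115559467-115563727: acttttggatgattaTccaaaatgcttcat
Gm8730, gene at chr8:102864845-102865798: acttttggatgattaCccaaaatgcttcat
Rpl15, gene at chr14:18267823-18271391: agctcgaagactgggAtacaaggctaagca
Gm10020, gene at chr15:52477617-52478228: agctcgaagactgggGtacaaggctaagca
Each pair of windows differs at 1 position.

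**Figure D4:**
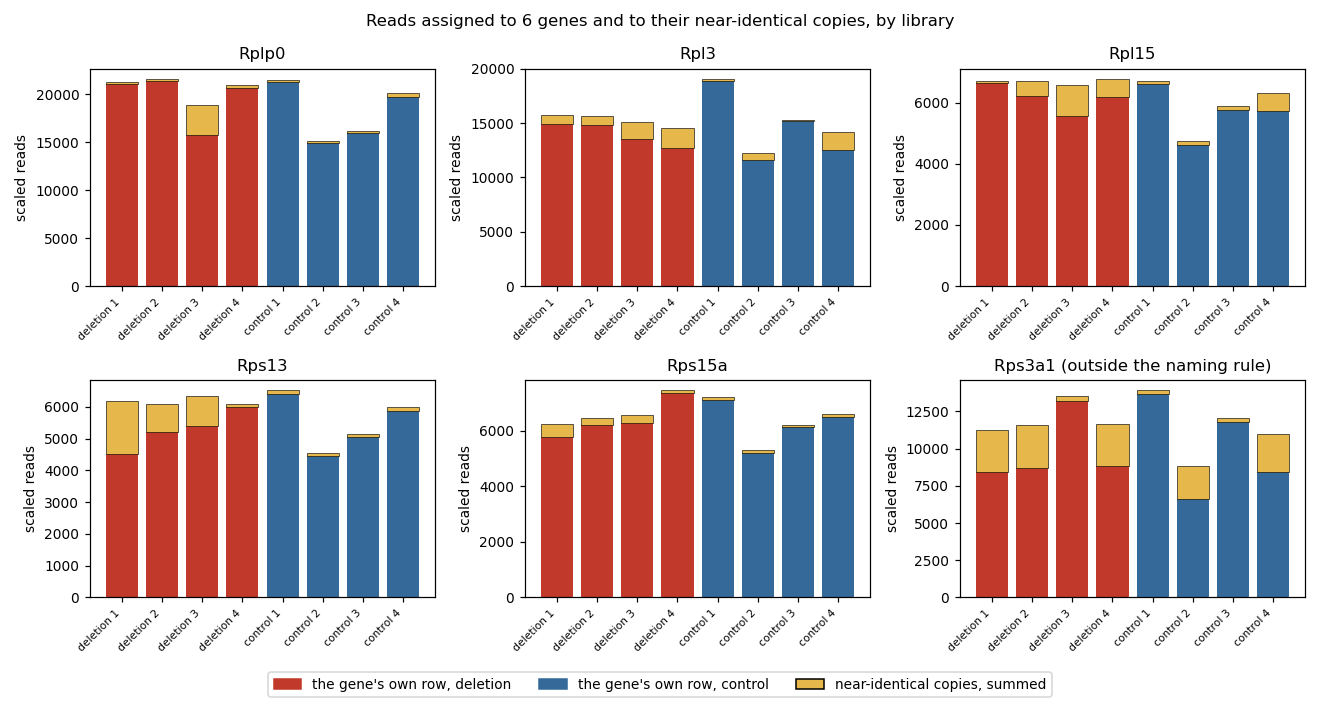
Scaled reads of 6 genes in each library, with the gene's own row in red (deletion, left) or blue (control, right). Its copies, summed, are stacked on top in yellow. The drawing calls them near-identical, but they are all genes sharing at least 5% of the gene's 50-base windows. The copies' share is highest in deletion replicates 1 to 3 for Rps13, in deletion replicate 3 for Rplp0, and in 5 of 8 libraries for Rps3a1, whose symbol the naming rule does not take.

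Ribosomal protein genes that the naming rule leaves out differed widely in level. Rps3a1, a small subunit protein with copies Rps3a2 and Rps3a3, had 8412, 8698, 13216 and 8841 scaled reads in deletion replicates 1 to 4, against 13644, 6629, 11795 and 8442 in control replicates 1 to 4, and Rps3a3 had 2342, 2376, 54.0 and 2341 scaled reads in deletion replicates 1 to 4, against 43.7, 1774, 54.1 and 2102 in control replicates 1 to 4. Rps3a1 was highest in the 3 libraries where Rps3a3 was low, deletion replicate 3 and control replicates 1 and 3. With copies added, its coefficient of variation over 8 libraries was 13.4% in place of 25.8%. Fau, which is made as a fusion with a ubiquitin-like protein, had a fold change of 0.22 ± 0.11. Rpl36al had -0.47 ± 0.28, Rpl7l1 0.16 ± 0.093, Rpl22l1 0.088 ± 0.13 and Rps27rt 0.28 ± 0.41, and 0 of 7 were called. Rpl36al averaged only 19.6 scaled reads in deletion libraries and 28.0 in controls, and Rps27rt 48.0 and 33.5. The fold changes of Rpl36al and Rps27rt lie outside the range of the 79 tested genes, -0.40 to 0.26.

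Genes of the wider pathway were read from the same fit. Of 40 genes for ribosome assembly and RNA polymerase I, 0 were called, with 32 above 0 and a median of 0.077. The 3 smallest p were those of Ltv1, a small subunit assembly factor (0.17 ± 0.091), Npm1, the nucleolar chaperone (0.16 ± 0.086), and Sbds, which frees the large subunit of Eif6 (0.15 ± 0.083). Of 39 translation factors, 0 were called, with 36 above 0 and a median of 0.11. Naca, a nascent chain chaperone, had 10276, 10517, 10210.3 and 10046 scaled reads in deletion replicates 1 to 4, against 10395, 7689.7, 9204 and 9249 in control replicates 1 to 4, and Eef1b2 and Eif4e had fold changes of 0.19 ± 0.098 and 0.14 ± 0.079. Of 14 tested genes of mTOR signalling and its mRNA-binding partners, 0 were called, 8 were above 0 and the median was 0.027. Eif4ebp1, an inhibitor of the cap-binding protein that mTOR switches off, had 0.26 ± 0.15, Larp4 0.11 ± 0.081 and Tsc1, a brake on mTOR, -0.099 ± 0.077. Of 10 genes of the p53 response, Trp53 itself included, 0 were called, 9 were above 0 and the median was 0.077, with Mdm2, which unassembled Rpl5 and Rpl11 bind, at 0.10 ± 0.072, Eda2r at 0.18 ± 0.16 and Ccng1 at 0.086 ± 0.087. The 74 tested mitochondrial ribosomal protein genes, a separate family, had a median of 0.10 with 66 above 0 and 0 called. In control replicate 2 the median deviation from the gene's own mean was 0.043 for the mTOR list and -0.14 for the p53 list, which was lowest in control replicate 3 (-0.15); the other 3 lists had the low values given above.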

How the data were processed

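The authors' deposited table holds 1 column per library, matched to samples by group and number in their names; the deletion columns carry another abbreviation than the titles and were matched by their number, no other columns being left. The deposited values are a signal, reads per gene over a library size factor, of which 100% came out whole within a tolerance of 0.001, so that reads were recovered. STAR 2.6.0, DESeq2 and GRCm38.p6 are named per the submitters' processing notes, but no read counter or strand setting. Per the file headers, the authors also deposited a base mean, a log2 fold change, a test statistic used as a score, and a p-value with its adjusted value.

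Here the main test was limma 3.58.1 (trend and robust, R 4.3.3) on log2(scaled reads + 1) after the filterByExpr function of edgeR 4.0.16 with a minimum count of 10, adjusted by Benjamini-Hochberg over 21974 genes, and was tested on simulated data. The design named this test for scaled values; edgeR's quasi-likelihood test and DESeq2 1.42.0 on recovered reads were alternatives. Libraries of a group differed by more than counting noise in every pair (chi-square per gene from 9.85 to 268). The closest pair was deletion replicates 1 and 2, at 9.85, and all other pairs were at 52.2 or above. Lengths are of the shortest complete principal coding transcript of GENCODE M21. Copies are other genes sharing at least 5% of a gene's 50-base windows. The genes and lists were chosen with earlier results of these data known, and the mitochondrial ribosomal protein list was added later. Genes named are the 6 highest and 6 lowest per kilobase, the 5 largest fold changes each way, those with an unadjusted p under 0.05, the 4 most variable, Rps12, all genes of the role lists, the genes outside the naming rule and the 3 smallest p of each pathway list. Rps10, Rps13, Rps15a, Rpl15 and the copies were chosen after their values were seen. A few genes are counted in the lists but not reported here by name.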

Additional observations from a re-analysis of the deposited data

Results flagged for a closer look

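In groups of 4 libraries, 1 library stood far from the other 3 by Dixon's criterion in 9 of 98 groups checked. Chance alone gives about 1 in 20 for independent groups, a rate that does not apply here. The genes move together from library to library, and the copy sums checked were chosen after their values were seen. In deletion replicate 3, Rplp1 had 14356 scaled reads, against 12478 to 12663 in the other deletion libraries. There, Rplp0 had 15753, against 20690.5 to 21434. Rpl18 had 8282 in deletion replicate 3, against 8842 to 8899, and Rps3 had 14120.2, against 15017 to 15190.3. In control replicate 2, Rpl35 had 982, against 1369 to 1411 in the other controls. The copies of Rplp0 summed to 3148 in deletion replicate 3, against 173 to 288, and those of Rplp1 to 793, against 71.5 to 128. The copies of Rpl15 summed to 589 in control replicate 4, against 98.0 to 137. The copies of Rps3a1 summed to 299.5 in deletion replicate 3, against 2798 to 2913. Deletion replicate 3 is the library whose Xist and Ddx3y reads go against its male label.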

How the results depend on the processing

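No ribosomal protein gene was called under any alternative run, and the alternatives kept the median log2 fold change above 0 except without control replicates 2 and 3, an alternative chosen after seeing the data, where it was -0.021. Over all genes, 16 were called, 10 with a mean of at least 50 reads, 7 without control replicates 2 and 3 and 13 to 28 leaving out 1 library each, with 28 without deletion replicate 4. Sign changes of single genes were checked for genes named in the report, not for all 79 tested. Of the 79, 70 were above 0 with all libraries (54.4% of all genes) and 57 without control replicate 2. The share of all genes was not counted in fits that leave out libraries. Among the genes checked, leaving out 1 library changed the sign of these log2 fold changes, given as ranges: Rpl19 -1.7e-05 to 0.15, Rpl23a -0.18 to 0.061, Rpl3 -0.13 to 0.10, Rpl31 -0.095 to 0.093, Rpl35 -0.16 to 0.025, Rpl5 -0.0083 to 0.14, Rps13 -0.13 to 0.047, Rps15a -0.043 to 0.11, Rps27 -0.0079 to 0.17, Rps3a1 -0.20 to 0.14. Without control replicates 2 and 3, 26 of the 79 tested ribosomal protein genes were above 0, and these genes named in the report, positive with all libraries, were negative: Rps27 -0.068, Rpl41 -0.050, Rps24 -0.0015, Rpl9 -0.015, Rpl26 -0.0037, Rps28 -0.078, Rps15 -0.021, Rplp0 -0.068, Rpl17 -0.035, Rpl31 -0.12, Rps2 -0.044, Rpl19 -0.051, Rps26 -0.071, Rps6 -0.00075, Rpl5 -0.042, Rps27l -0.018, Rpl15 -0.0052, Rps15a -0.093. With the reads of copies added, Rpl3 was 0.021, Rps13 0.17 and Rps3a1 0.082. The causes were not tested beyond the values in the report. Same-numbered libraries of both groups had deviations correlated at 0.325, 0.0878, -0.168 and 0.0533, so the numbers were not taken to pair them; with the replicate block 14 genes were called, 0 of them ribosomal protein genes, and the median was 0.14. The 4 libraries per group limit the precision, with a median standard error of 0.10.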

Other observations

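Rows named as ribosomal protein pseudogenes (256, ending in -ps) took 115 ± 16.3 CPM in deletion libraries and 78.0 ± 27.6 in controls (SD, n = 4 each). By library this was 111, 93.5, 127 and 129 in deletion replicates 1 to 4, against 56.5, 74.1, 63.4 and 118 in control replicates 1 to 4, so that control replicate 4 lies within the deletion range and the other 3 controls lie below it. The rows include Rps13-ps1, with 1626 scaled reads in deletion replicate 1, and Rpl3-ps1, with 1778 in deletion replicate 4. Both rows were uneven between libraries. Rps13-ps1 had 849 to 1626 scaled reads in deletion replicates 1 to 3 and 34.2 to 58.0 in controls. Rpl3-ps1 had 725 to 1778 in deletion libraries, against 131 and 96.6 in control replicates 1 and 3 and 579.5 and 1570.4 in control replicates 2 and 4. The sum was not taken without these 2 rows, which may hold most of the difference, so it cannot be read as a difference of the 256 rows as a family. Rpl30 and Rpl3, 45.6 Mb apart on chromosome 15, were both highest in control replicates 1 and 3. The copies of Rpl30 summed to 120.2, 111, 178 and 209 scaled reads in deletion replicates 1 to 4, against 127, 146, 128 and 209 in control replicates 1 to 4, a smaller range than that of Rpl30 itself.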
